A study of Rattus norvegicus and Bos taurus with 6 samples.

Results

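The 10 genes described here encode transcription factors outside the HOX clusters that pattern the body axis, limbs or viscera in the embryo, namely Tbx15, Tbx5, Tbx18, Pax3, En1, Meis1, Meis2, Nr2f1, Nr2f2 and Shox2. They were chosen by name and found by symbol in each library, among 25629 listed genes in the 10x library, 38697 in each rat Parse library and 36075 in the cow library. All 10 had at least 1 UMI in each of the 5 Parse libraries, and 6 had one in the 10x library.

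The data were single-nucleus RNA-seq counts of adipose tissue, with 1 library per condition and so no replicate of any group. Rats were male Dahl SS animals on a normal diet, and their fat came from around the mesenteric vessels (mesPVAT), the retroperitoneum (RP fat), the thoracic aorta (taPVAT) and the subscapular brown depot (BAT). These 4 rat libraries and a library of subcutaneous flank white fat from a lactating Holstein cow (cow WAT) were made with Parse combinatorial barcoding, each as 2 sublibraries, and a further mesPVAT library was made with 10x droplets from nuclei prepared by an earlier protocol. Vessels were taken out of the perivascular fat and white fat out of the BAT, and the labels name no transgene or drug. By the paper's methods, nuclei of taPVAT were spun more slowly than those of rat white fat and cow fat. Only cow samples passed an extra, finer filter. Such differences in preparation cannot be told apart from those of depot or species.

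Positional factors are best known from the embryo, where their domains prefigure where limbs, somites and viscera form. Fat depots of adult mammals keep part of this code, so that precursor cells from different depots can be told apart by HOX and T-box genes.

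Libraries differed widely in depth, which sets what can be seen. The 10x library held 5887 nuclei with a median of 161 UMIs, mesPVAT 3028 with 346, RP fat 2805 with 213, taPVAT 2708 with 1246, BAT 2699 with 1706 and cow WAT 2297 with 3530. Levels are CPM, the UMIs of a gene per 1000000 UMIs, summed over the nuclei of a library or cell class, with exact 95% Poisson intervals that cover counting error only. With these sums, fewer cells of a type and less RNA per cell cannot be told apart. In ratios a gene with no UMI was set to 3 counts, which is 2.42 CPM in the 10x library, 3.55 CPM in RP fat and 0.475 CPM in BAT. The exact 95% upper limit for no UMI is somewhat higher, at 2.98 CPM in the 10x library. Ucp1, the thermogenic uncoupling protein of brown adipocytes, was at 1782 CPM in taPVAT and 2072 CPM in BAT but also at 63.4 CPM in mesPVAT and 89.9 CPM in RP fat, against 0.808 CPM in the 10x library and 0.654 CPM in cow WAT. The nucleus counts that the study gives for mesPVAT and RP fat match neither deposited library, so both are called here by their labels. Whether these labels were exchanged was not tested. If they were, each direction between mesPVAT and RP fat would turn, and the pairs with taPVAT and BAT would have each other's partner.

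Nuclei were assigned to a class by 1 anchor gene each, as adipocyte (Plin1), endothelial (Ptprb), stromal (Pdgfra) or mural (Notch3). Mural cells are the pericytes and smooth muscle cells that wrap small and larger vessels. Nuclei with 2 or more anchors were kept apart as mixed, and nuclei with Ptprc and none of the 4 anchors served as an immune reference. Other markers of the named type stood above their level in the other classes by 69.8 times for BAT mural nuclei, 27.5 times for taPVAT, 9.37 times for cow WAT, 8.93 times for mesPVAT and 2.93 times for RP fat. In RP fat the Ptprc class did not bear out its name. Its other immune markers were at 136 CPM (28.1 to 398, from 3 UMIs). That is 0.470 of the 290 CPM in the other classes, a gap within counting error. In the 10x library 84.8% of nuclei had none of the 5 genes.

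The plot of levels by library shows the 10 genes in all 6 libraries. Each gene was compared between libraries on this scale, since CPM also grows with the length of a gene.

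**Figure D1:**
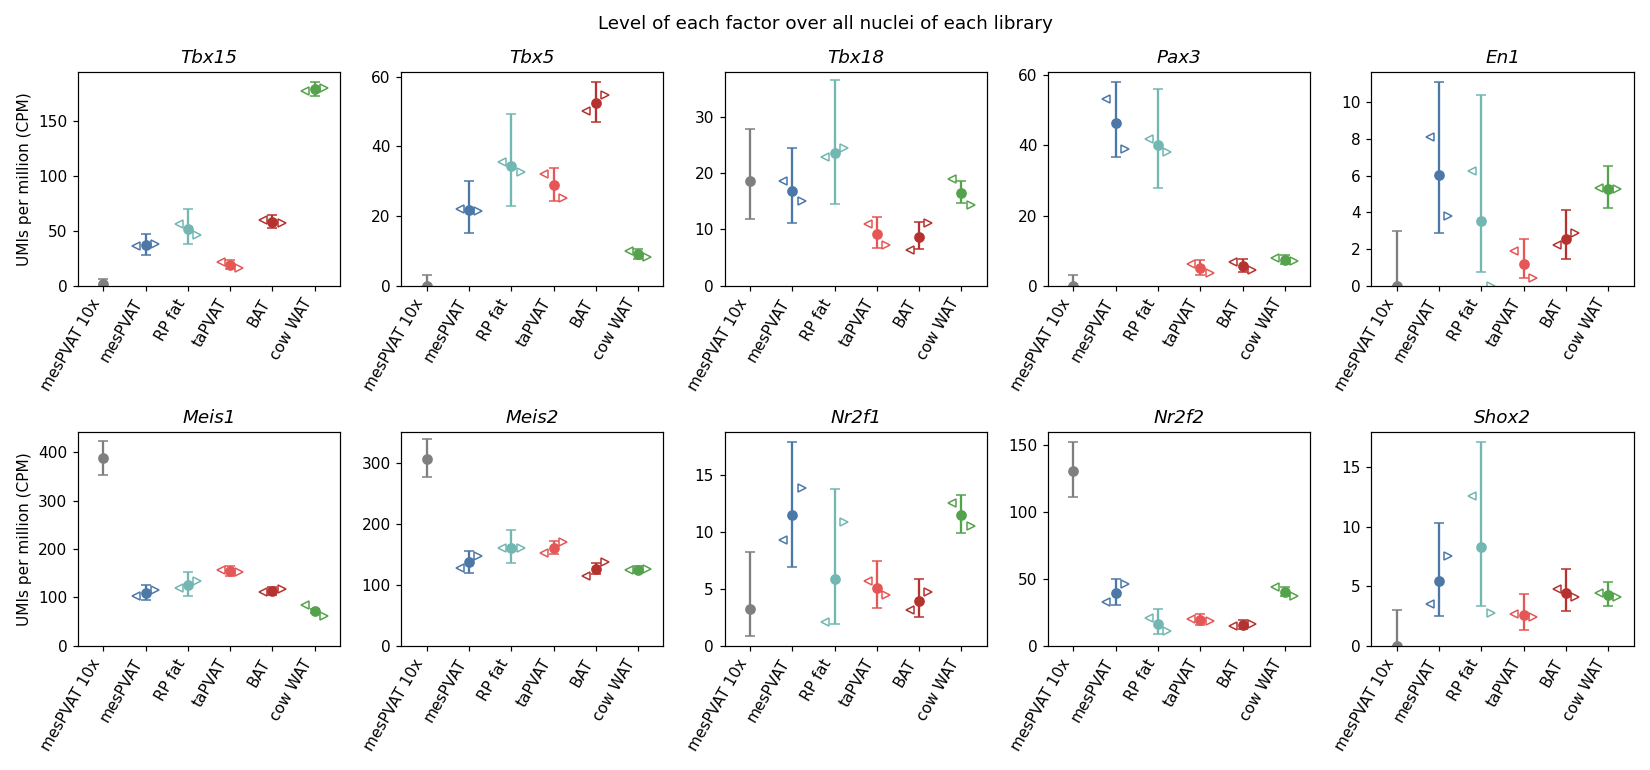
Level of each of the 10 genes in each library, as CPM of summed UMIs. Dots are the library, bars the exact 95% Poisson interval, and open triangles the sublibraries of the Parse libraries. Tbx15 reached 179 CPM in cow WAT, and Pax3 stood at 46.5 and 40.2 CPM in mesPVAT and RP fat but under 8 CPM elsewhere.

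Tbx5, which starts forelimb outgrowth and patterns the heart, had 0 UMIs in the 10x library. It stood at 21.7 CPM in mesPVAT (15.2 to 30.1) and 34.3 in RP fat (23.0 to 49.3). The brown depots had 28.8 CPM in taPVAT (24.4 to 33.9) and 52.5 CPM in BAT (47.1 to 58.5), and cow WAT had 9.09 CPM (7.71 to 10.7). The intervals of RP fat, taPVAT and mesPVAT overlapped along that order, so the sums alone did not set white and brown depots apart.

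Cell classes showed where it lay. In BAT, Tbx5 was at 752 CPM in mural nuclei (617 to 907, from 109 UMIs in 73 nuclei) and at 4.73 CPM in adipocyte nuclei (2.70 to 7.68, from 16 UMIs in 1431 nuclei), a ratio of 159 (93.7 to 288). In taPVAT the mural level was 522 CPM (366 to 723, from 36 UMIs in 68 nuclei) and the adipocyte level 11.0 CPM, a ratio of 47.4 (28.1 to 80.7). Both brown depots thus held Tbx5 at its highest level in the mural class. Endothelial nuclei were at 6.93 CPM in BAT and 3.90 CPM in taPVAT.

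The pattern stood in each sublibrary. Mural Tbx5 was at 919 and 567 CPM in the 2 sublibraries of BAT and at 720 and 321 CPM in those of taPVAT. No single nucleus held more than 13 of the 332 UMIs in BAT.

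The mural class of the white rat depots, which leaves out mixed nuclei, had no Tbx5 UMI. Of 30 Tbx5-positive nuclei in mesPVAT, 3 had Notch3, or 10.0% (2.11% to 26.5%), against 3.96% of all nuclei. Mixed nuclei of mesPVAT held 7 of its 36 Tbx5 UMIs. Its stromal class held 5 among 29253 UMIs in all, each from sublibrary 1, and its adipocyte class 4 among 389092. In RP fat 0 of 28 positive nuclei had Notch3. In mesPVAT the 48 mural nuclei held 31311 UMIs in all, so that 3 counts would be 95.8 CPM. In RP fat the 44 mural nuclei held 22842 UMIs, so that 3 counts would be 131 CPM. Against 3 counts the mural level was 5.45-fold higher in taPVAT than in mesPVAT and 5.72-fold higher in BAT than in RP fat. These ratios are not lower bounds, since the exact upper limit for no UMI is somewhat higher than 3 counts. The markers of these white mural classes were also less sharp, as given above, and the part of class purity in this difference was not tested. In cow WAT, where 281 mural nuclei were sequenced deeply, Tbx5 was at 13.97 CPM in mural nuclei (8.14 to 22.4) and between 6.81 and 12.6 CPM in the other 4 classes, with all intervals overlapping.

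Counts of nuclei were read beside these levels. Of 140 Tbx5-positive nuclei in BAT, 96 also had Notch3, or 68.6% (60.2% to 76.1%), while 8.15% of all BAT nuclei did. In taPVAT it was 50 of 83, or 60.2% (48.9% to 70.8%), against 8.20% of all nuclei. Thinning sets nuclei to equal depth. After each nucleus was thinned to 500 UMIs, 19 of 56 positive nuclei in BAT and 17 of 37 in taPVAT had Notch3, against 3.37% and 4.01% of all thinned nuclei. Within the mural class 42 of 73 BAT nuclei were positive at a median of 1226 UMIs, and among immune nuclei, which serve as background, 0 of 51 at a median of 881 UMIs, which allows up to 6.98% (exact 95% limit). In taPVAT 20 of 68 mural nuclei were positive at a median of 852.5 UMIs and 1 of 150 immune nuclei at 704 UMIs. The mural shares thus lay above the background of the same library. Mixed nuclei held a further 49.1% of the Tbx5 UMIs of BAT, and 32.8% lay in the mural class.

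Mural nuclei were then split by their own genes, as those with more UMIs of the pericyte genes Rgs5 and Abcc9 and those with more of the smooth muscle genes Myh11 and Acta2. This split was added after the class levels were seen. In BAT, Tbx5 was at 1308 CPM in the 48 pericyte-type nuclei (1061 to 1596), of which 36 were positive, and at 143 CPM in the 18 smooth muscle-type nuclei (65.6 to 272), of which 4 were. In taPVAT the levels were 777 CPM (520 to 1115) and 317 CPM (128 to 654), with overlapping intervals, and 5 of the 7 UMIs in the smooth muscle-type nuclei came from 1 nucleus. In cow WAT they were 8.10 and 10.5 CPM.

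**Figure D2:**
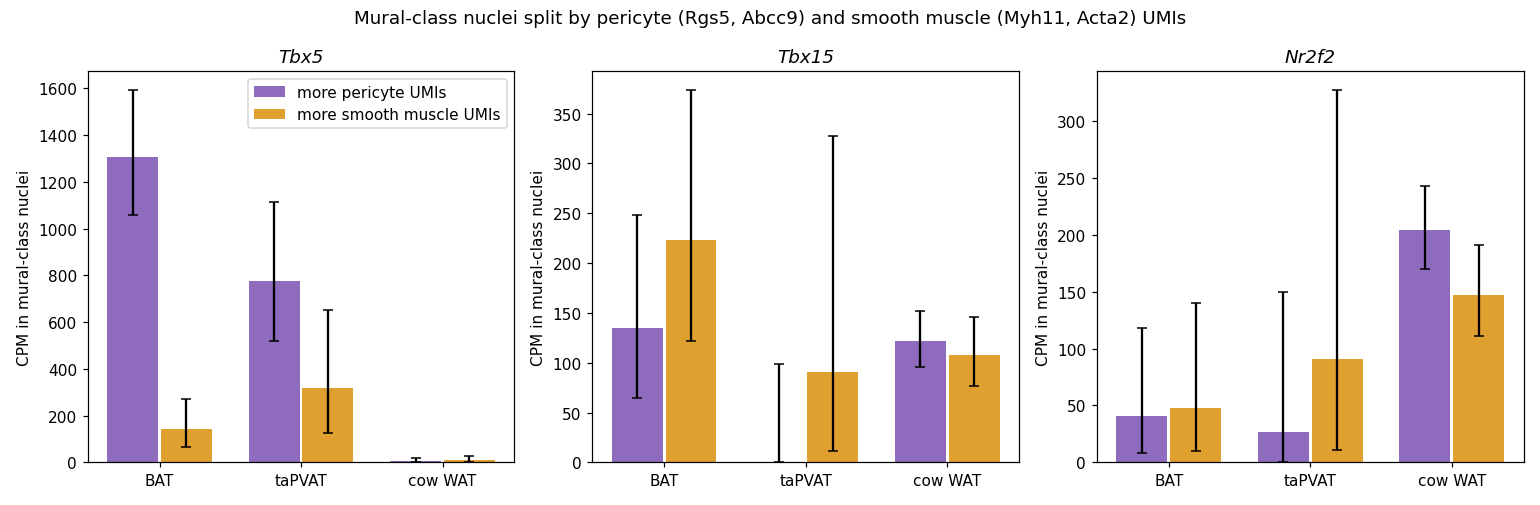
Tbx5, Tbx15 and Nr2f2 in mural nuclei with more pericyte UMIs or more smooth muscle UMIs, as CPM of summed UMIs with exact 95% Poisson intervals. Tbx5 stood at 1308 CPM in pericyte-type nuclei of BAT against 143 CPM in smooth muscle-type nuclei and, in cow WAT, at 8.10 and 10.5 CPM.

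The rat Tbx5 gene lies on chr12:42342926-42399723 (GRCr8) and spans 56.8 kb. The RefSeq table holds the 250 bases before and 50 after the start of 1 transcript of each gene, and 7 of the 10 genes had an entry. The windows of Tbx5 and Tbx15 are shown because Tbx5 had the largest ratio of mural to adipocyte nuclei in both brown depots and Tbx15 was the gene called between those depots, and capitals mark a match to the MEIS core TGACAG on either strand. The Tbx5 window, at chr12:42395310-42395609 on the minus strand, lies inside the gene's span.

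Tbx5: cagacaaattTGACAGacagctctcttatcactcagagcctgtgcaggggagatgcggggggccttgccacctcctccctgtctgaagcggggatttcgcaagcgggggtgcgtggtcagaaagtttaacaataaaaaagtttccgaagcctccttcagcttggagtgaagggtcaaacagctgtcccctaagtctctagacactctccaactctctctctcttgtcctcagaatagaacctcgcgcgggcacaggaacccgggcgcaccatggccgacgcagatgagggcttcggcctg

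Tbx15: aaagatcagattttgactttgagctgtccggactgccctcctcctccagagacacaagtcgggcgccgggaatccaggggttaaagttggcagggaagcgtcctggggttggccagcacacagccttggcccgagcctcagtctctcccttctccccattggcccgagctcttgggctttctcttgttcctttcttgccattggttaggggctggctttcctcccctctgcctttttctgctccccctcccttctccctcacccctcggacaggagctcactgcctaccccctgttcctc

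The Tbx15 window is at chr2:189265123-189265422 on the plus strand, and its gene at chr2:189265373-189376466 spans 111 kb. Of 33469 rat promoters of this length, 19.0% hold TGACAG. The Tbx5 window and that of Tbx18 each held it once, and the other 5 windows did not. None of the 7 held the T-box site AGGTGT, found in 13.6% of promoters, or TATAAA, found in 14.2%. The Tbx5 window had 14 CpG dinucleotides and that of Tbx15 had 8, against a median of 7 over all promoters.

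Tbx15, a T-box repressor of skeletal and limb mesenchyme that is known as a marker of particular fat depots, differed between depots. It stood at 1.62 CPM in the 10x library (2 UMIs), 36.8 in mesPVAT (28.2 to 47.3) and 52.1 in RP fat (37.8 to 69.9). Brown fat had 19.0 CPM in taPVAT (15.4 to 23.2) and 58.6 CPM in BAT (52.7 to 64.8), and cow WAT had 179 CPM (173 to 186). BAT and RP fat overlapped, as did RP fat and mesPVAT, while taPVAT lay below all other Parse libraries and cow WAT above them.

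BAT against taPVAT compares brown fat of different positions. Tbx15 was 3.08-fold higher in BAT (2.46 to 3.89), and it was the only 1 of the 10 genes called, where a call needs a ratio of at least 2 and Poisson intervals that do not overlap. Over all 18640 genes with at least 20 UMIs in the pair, 0.381% were higher in BAT and 3.22% were lower. The median log2 ratio was 0.05 over the 10 genes and -0.11 over all genes. Within the adipocyte class alone Tbx15 was at 46.4 CPM in BAT (39.4 to 54.2) and 16.9 CPM in taPVAT (12.2 to 22.8), a ratio of 2.74 (1.95 to 3.94). Tbx5 was 1.82-fold higher in BAT (1.497 to 2.23), under the fold of 2, and mural Tbx5 alone differed by a ratio of 1.44 (0.980 to 2.16). In the adipocyte class the ratio of BAT to taPVAT went the other way, at 0.429 for Tbx5 (0.217 to 0.822), but this rested on sublibrary 1. There adipocyte nuclei were at 17.6 CPM in taPVAT and 2.26 CPM in BAT, and in sublibrary 2 at 4.04 and 7.44 CPM, the opposite direction.

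Inside BAT, Tbx15 was not an adipocyte gene alone. Mural nuclei were at 166 CPM (106 to 246) and the 19 stromal nuclei at 429 CPM (206 to 790, from 10 UMIs), while endothelial nuclei were at 9.24 CPM (2.52 to 23.7). The mural level was 3.57-fold above the adipocyte level (2.22 to 5.51), and the endothelial level 5.02-fold below it (1.92 to 18.7). In the mural split Tbx15 was at 223 CPM in smooth muscle-type nuclei (122 to 374) and 135 CPM in pericyte-type nuclei (64.7 to 248), with overlapping intervals. Of the 73 mural nuclei 42 had Tbx5, 16 had Tbx15 and 7 had both.

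In cow WAT the order of classes was another. Tbx15 was at 289 CPM in adipocyte nuclei (257 to 323), 175 in stromal nuclei (153 to 200), 110 in mural nuclei (92.2 to 130), 40.8 in immune nuclei (28.6 to 56.5) and 26.3 in endothelial nuclei (19.5 to 34.6). Adipocyte nuclei were thus 11.0-fold above endothelial nuclei (8.13 to 15.1) and 2.62-fold above mural nuclei. Mixed nuclei held 71.3% of the Tbx15 UMIs, and 1 nucleus held 91 of 3019.

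The share of nuclei with Tbx15 followed depth as well as level. It was 10.7% in BAT (9.57% to 11.9%), 3.40% in taPVAT and 28.2% in cow WAT (26.3% to 30.1%), against 7.84%, 1.33% and 13.7% of immune nuclei. At 500 UMIs per nucleus the shares were 2.94% in BAT, 0.991% in taPVAT, 5.22% in cow WAT, 1.54% in mesPVAT and 1.58% in RP fat. The thinning left out 115 nuclei of BAT, 386 of taPVAT and none of cow WAT, but 2052 of mesPVAT and 2425 of RP fat.

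Tbx18, known from the epicardium, the sinus node and mural cells of many organs, was at 18.6 CPM in the 10x library, 16.9 in mesPVAT and 23.7 in RP fat. Tbx18 in brown fat was at 9.22 CPM in taPVAT and 8.71 CPM in BAT, and cow WAT had 16.5 CPM. The first 4 in rank, from RP fat to cow WAT, overlapped with their neighbours, as did taPVAT and BAT below them. By anchor classes it too was highest in mural nuclei in BAT, taPVAT and cow WAT, while marker lists placed its highest level in BAT in stromal nuclei. BAT mural nuclei were at 89.7 CPM (47.7 to 153) and adipocyte nuclei at 2.66 CPM, a ratio of 33.7 (13.3 to 89.4), and cow mural nuclei at 46.0 CPM (34.8 to 59.7) were 9.66-fold above adipocyte nuclei (3.90 to 30.9). In taPVAT mural nuclei were at 58.0 CPM from 4 UMIs, and stromal nuclei also held 4 UMIs. Of the Tbx18-positive nuclei 59.1% in BAT and 65.8% in cow WAT had Notch3, against 8.15% and 26.2% of all nuclei. Positive nuclei were deeper, at medians of 3325.5 and 11209 UMIs in these libraries against 1694 and 3244.5 in negative nuclei. After thinning, 7 of 10 positive nuclei in BAT had Notch3, against 3.37% of all thinned nuclei. In cow WAT it was 2 of 17, against 6.31%. In taPVAT 31.8% of positive nuclei had Notch3 and 29.5% had Pdgfra, against 8.20% and 6.72% of all nuclei. In the 10x library 7 of the 23 Tbx18 UMIs lay in 194 nuclei that marker lists put in a mesothelial class, at 111 CPM (44.6 to 228).

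The heat map of classes sets the genes side by side for the 3 deepest libraries. Against adipocyte nuclei, 4 of 6 tested genes were higher in BAT mural nuclei (Tbx5, Tbx18, Tbx15 and Meis2) and none lower, where 12.6% of all genes were higher and 8.47% lower. The median log2 ratio of the 6 was 1.84, against 0.22 for all genes. In taPVAT 1 of 5 was higher, Tbx5, against 9.51% of all genes, with 5.15% lower and medians of 0.78 and 0.53. In cow WAT 3 of 9 were higher (Nr2f2, Tbx18 and Nr2f1) and 3 lower (En1, Tbx15 and Meis1), against 13.1% and 9.39% of all genes and medians of 0.68 and 0.13. A gene was tested with at least 20 UMIs over the 2 classes. Among the higher genes, Tbx5 (16 adipocyte and 109 mural UMIs) and Tbx18 (9 and 13) of BAT reached this only with mural UMIs. So did Nr2f2 (10 and 206), Tbx18 (5 and 56) and Nr2f1 (4 and 37) of cow WAT. In BAT Pax3 and En1, with 16 and 10 adipocyte and 0 mural UMIs, were not tested. The filter thus partly sets these counts and medians.

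**Figure D3:**
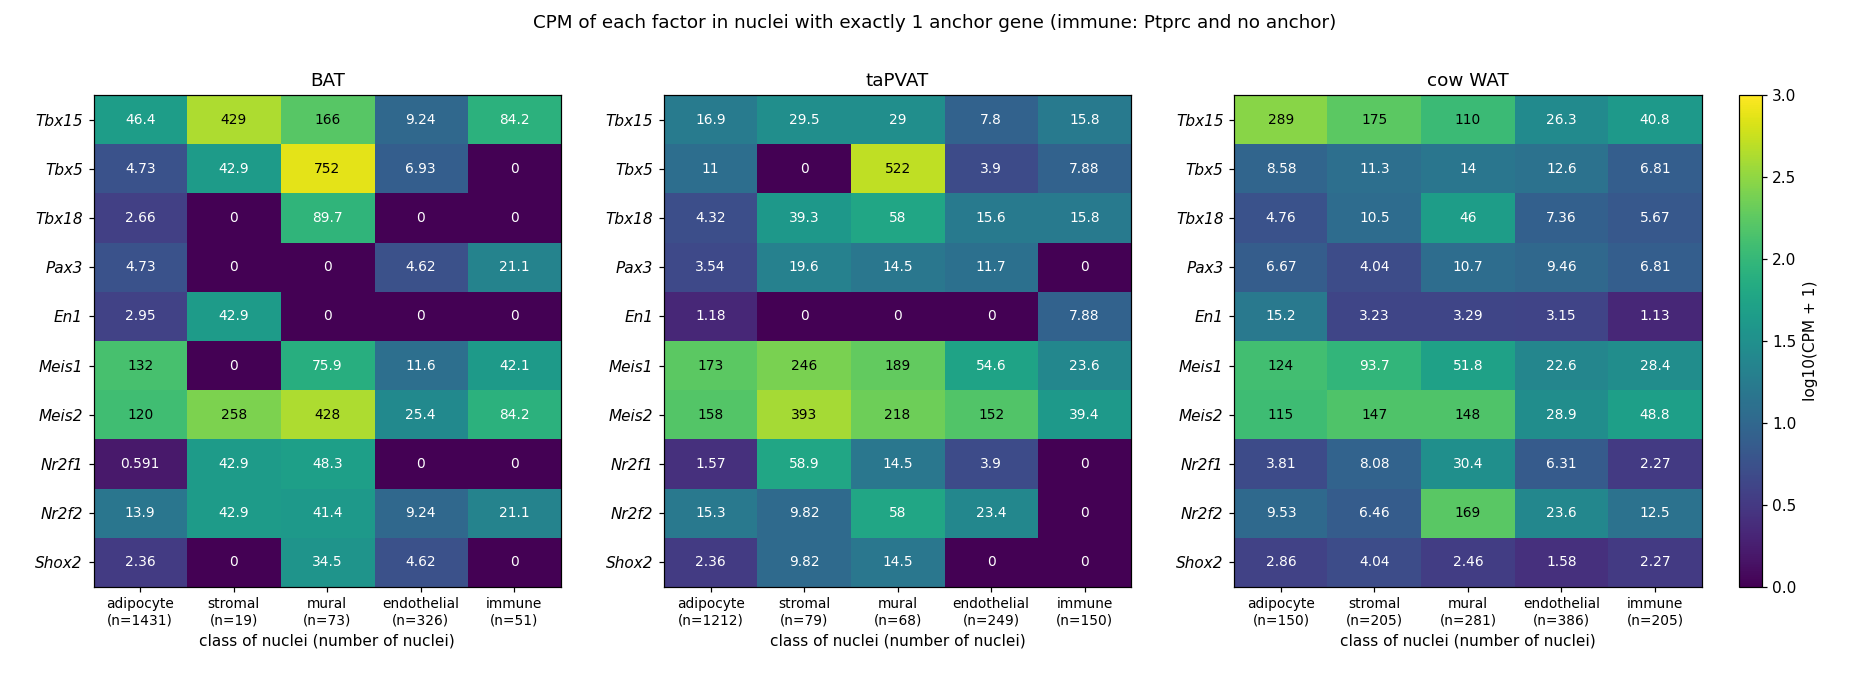
Level of each gene in the cell classes of BAT, taPVAT and cow WAT, as a heat map of log10(CPM + 1) with the CPM printed in each cell. Tbx5 was at 752 and 522 CPM in mural nuclei of BAT and taPVAT and at 13.97 CPM in those of cow WAT, and Meis1 was at 11.6 CPM in endothelial nuclei of BAT against 132 CPM in adipocyte nuclei.

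Endothelial nuclei stood apart in the other direction. In BAT 3 of 4 tested genes were lower than in adipocyte nuclei (Meis1, Tbx15 and Meis2), where 13.5% of all genes were lower and 16.8% higher, with median log2 ratios of -2.28 and 0.03. In taPVAT 1 of 5 was lower, Meis1, where 9.56% were lower and 15.9% higher, with medians of -1.12 and 0.17. In cow WAT 4 of 7 were lower (Tbx15, Meis1, En1 and Meis2), where 11.2% were lower and 12.8% higher, with medians of -1.996 and 0.06. No member was called higher in endothelial nuclei in any of the 3 libraries. The same filter on UMIs partly sets these counts, since Meis1, Tbx15 and Meis2 of BAT reached it only with adipocyte UMIs.

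Meis1 and Meis2 are TALE homeodomain proteins that bind DNA together with HOX factors and mark the proximal limb. Meis1 stood at 387 CPM in the 10x library (353 to 423), 109 in mesPVAT (93.9 to 126) and 125 in RP fat (103 to 152). Brown fat libraries stood at 155 CPM in taPVAT (144 to 166) and 114 CPM in BAT (106 to 122), and cow WAT had 71.9 CPM (67.9 to 76.1). Meis2 stood at 306, 137, 161, 161, 126 and 125 CPM in the same order. Neither was called in any of the 4 comparisons of rat Parse libraries, while the cow level of Meis1 lay apart from and below all the rat levels.

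By class, adipocyte nuclei were at 132 CPM for Meis1 in BAT (120 to 145), 173 in taPVAT (157 to 190) and 124 in cow WAT (104 to 147). By anchor classes they were the highest class in BAT and cow WAT, while marker lists placed the highest level of BAT in stromal nuclei. The 19 stromal nuclei of BAT by anchor held 0 Meis1 UMIs but only 23288 UMIs in all, too few to set them below adipocyte nuclei. In cow WAT the intervals of stromal and adipocyte nuclei overlapped. In taPVAT stromal nuclei were highest, with overlapping intervals. Adipocyte nuclei held 62.0% of the Meis1 UMIs of BAT and 55.8% of those of taPVAT. In cow WAT they held 10.7%, and mixed nuclei 63.9%. Endothelial nuclei were lower than adipocyte nuclei by 11.4-fold in BAT (4.85 to 35.3), 3.17-fold in taPVAT (1.87 to 5.84) and 5.48-fold in cow WAT. Of 499 Meis1-positive nuclei in BAT 90.8% (87.9% to 93.2%) had Plin1, against 69.1% of all nuclei. At 500 UMIs it was 89 of 134, or 66.4%, against 54.7%.

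Mural nuclei of BAT were at 428 CPM for Meis2 (328 to 548), 3.57-fold above its own adipocyte level (2.69 to 4.68). For Meis1 they were at 75.9 CPM (37.9 to 136), against 132 CPM in adipocyte nuclei. Meis2 was at 589 CPM in smooth muscle-type nuclei (415 to 812) and 310 CPM in pericyte-type nuclei (197 to 465). Of its 37 UMIs in the smooth muscle-type nuclei, 13 came from 1 nucleus. Stromal nuclei of taPVAT were at 393 CPM for Meis2 (281 to 535) and 246 CPM for Meis1 (159 to 362). In cow WAT Meis2 was between 115 and 148 CPM in adipocyte, stromal and mural nuclei and at 28.9 CPM in endothelial nuclei (21.8 to 37.6). The cow annotation lists MEIS2 under 2 identifiers, which were summed and held 23 and 2076 UMIs.

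Nr2f2 and Nr2f1 are COUP transcription factors, and Nr2f2 is known for setting venous and lymphatic identity. Nr2f2 stood at 131 CPM in the 10x library (112 to 153), 39.2 in mesPVAT (30.3 to 50.0) and 16.6 in RP fat (9.05 to 27.8). Brown fat had 19.4 CPM in taPVAT (15.8 to 23.6) and 15.8 CPM in BAT (12.9 to 19.3), and cow WAT had 40.6 CPM (37.7 to 43.8). Both mesPVAT libraries thus lay above the other rat depots. Nr2f1 stood at 3.23, 11.5, 5.91, 5.10, 3.96 and 11.5 CPM in the same order, with every neighbour in rank overlapping.

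In cow WAT, Nr2f2 was highest in the mural class. Mural nuclei were at 169 CPM (147 to 194), endothelial nuclei at 23.6 (17.2 to 31.6), adipocyte nuclei at 9.53 (4.57 to 17.5) and stromal nuclei at 6.46 (2.79 to 12.7). The ratio of mural to adipocyte nuclei was 17.8 (9.46 to 37.6). Of 349 positive nuclei 67.3% (62.1% to 72.2%) had Notch3, against 26.2% of all nuclei. Positive nuclei were deeper, at a median of 6957 UMIs against 3118 in negative nuclei. After thinning to 500 UMIs, 10 of 55 positive nuclei had Notch3, or 18.2%, against 6.31% of all thinned nuclei. Mixed nuclei held 52.8% of the Nr2f2 UMIs, and 30.1% lay in the mural class. Both mural types held Nr2f2, at 204 CPM in the pericyte-type (170 to 243) and 147 CPM in the smooth muscle-type (111 to 191). Nr2f1 followed, at 30.4 CPM in mural nuclei (21.4 to 41.9) and 3.81 CPM in adipocyte nuclei, a ratio of 7.98 (2.87 to 30.8). In BAT Nr2f2 was at 41.4 CPM in mural nuclei (15.2 to 90.1) from 6 UMIs and 13.9 CPM in adipocyte nuclei, with overlapping intervals.

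RP fat against mesPVAT compares white depots. Nr2f2 was 2.37-fold lower in RP fat (1.32 to 4.57), the only call among 8 tested genes, where 3.76% of all genes were lower and 4.02% higher. The medians of the log2 ratios were 0.22 for the 8 genes and 0.25 for all. The call rested on 14 UMIs in RP fat and was not met among nuclei with at least 500 UMIs, without the 1% of nuclei with the most UMIs, or in sublibrary 1 alone.

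taPVAT against mesPVAT compares brown and white perivascular fat, whose nuclei were also spun at different speeds. Pax3 was 9.48-fold lower in taPVAT (5.97 to 15.5) and Nr2f2 2.02-fold lower (1.46 to 2.79), which made 2 calls among 9 tested genes. Of all genes 41.4% were lower and 8.39% higher, so a lower call was common in this pair. The median log2 ratio was -0.95 over the 9 genes and -0.70 over all genes. The Nr2f2 call was lost when the 5 genes with the most UMIs were taken from the totals, without the 1% of nuclei with the most UMIs, and in sublibrary 1 alone.

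BAT against RP fat compares brown and white fat away from vessels. Pax3 was 7.26-fold lower in BAT (4.39 to 12.0) and Tbx18 2.72-fold lower (1.54 to 4.61), 2 calls among 9 tested genes, where 45.5% of all genes were lower and 13.3% higher. The medians were -0.35 and -0.90. The Tbx18 call was lost among nuclei with at least 500 UMIs and in sublibrary 2 alone.

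Pax3 and En1 act in the somite, neural crest and ventral limb. Pax3 had 0 UMIs in the 10x library and stood at 46.5 CPM in mesPVAT (36.7 to 58.1) and 40.2 in RP fat (27.9 to 56.2). The brown libraries were low, at 4.90 CPM in taPVAT (3.17 to 7.24) and 5.54 CPM in BAT (3.86 to 7.70), and cow WAT had 7.43 CPM (6.18 to 8.85). Pax3 thus stood higher in both white Parse libraries of the rat than in all the others. Its class levels overlapped in mesPVAT, where adipocyte nuclei were at 33.4 CPM (17.8 to 57.1), endothelial nuclei at 31.1 (10.1 to 72.5), immune nuclei at 68.1 (18.5 to 174), mural nuclei at 95.8 (19.8 to 280) and nuclei without any anchor at 51.8 (35.8 to 72.3). The share of nuclei with Pax3 was 2.18% over mesPVAT and 3.60%, or 4 of 111, among the immune nuclei that serve as background. Other immune markers in that class stood only 2.74 times above their level in the other classes. En1 stood at 0, 6.04, 3.55, 1.18, 2.53 and 5.29 CPM in the 6 libraries, with neighbours overlapping. In cow WAT En1 was at 15.2 CPM in adipocyte nuclei (8.71 to 24.8), 4.64-fold above mural nuclei.

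Other genes of these families had unequal levels in the same libraries. Pax7, a marker of muscle precursors, was at 35.0 CPM in mesPVAT and 72.2 in RP fat against 6.67 in taPVAT and 5.38 in BAT, and Pax2, a kidney and ear gene, at 38.6 and 67.4 against 5.69 and 4.75. Of the 10 other PAX, engrailed and COUP-TF genes, 4 of 6 tested were lower in taPVAT than in mesPVAT (Pax2, Pax5, Pax7 and Pax8), where 41.4% of all genes were lower, and the same 4, of 5 tested, lower in BAT than in RP fat, where 45.5% were. Pax7 was called higher in RP fat than in mesPVAT, where 4.02% of all genes were higher, and none of 6 was called between BAT and taPVAT. The medians of the list's log2 ratios were -2.03 in the perivascular and -3.75 in the other brown to white pair, against -0.70 and -0.90 for all genes. Between the platforms 1 of 5 was higher in the 10x library (Nr2f6) and 4 were lower, where 21.1% of all genes were higher and 28.9% lower.

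Gene length moved with these levels. Nuclear RNA is rich in introns, so each gene was also given as CPM per kb of its span. If UMIs were spread evenly over the spans of the 19417 genes matched, 1 kb would hold 0.741 CPM in mesPVAT, 0.688 in RP fat and 0.788 in taPVAT and in BAT. Pax3, with a span of 96.6 kb, was at 0.481 and 0.416 CPM per kb in mesPVAT and RP fat and at 0.0508 and 0.0574 CPM per kb in taPVAT and BAT. Among the genes matched, these levels lay at percentiles 42.8 in mesPVAT, 25.0 in RP fat, 18.8 in taPVAT and 24.6 in BAT. Against other genes of its library Pax3 was thus not high in the white depots. The other PAX, engrailed and COUP-TF genes had medians of 0.356, 0.581, 0.0640 and 0.0525 CPM per kb. Across all genes the rank correlation of span and UMIs was 0.793, 0.835, 0.650 and 0.643, and over the 10 members Pearson's r on log scales was 0.867, 0.973, 0.794 and 0.829, in the same order of libraries. These correlations are descriptions over genes of 1 library. The part of background RNA in the levels of the white libraries was not tested.

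**Figure D4:**
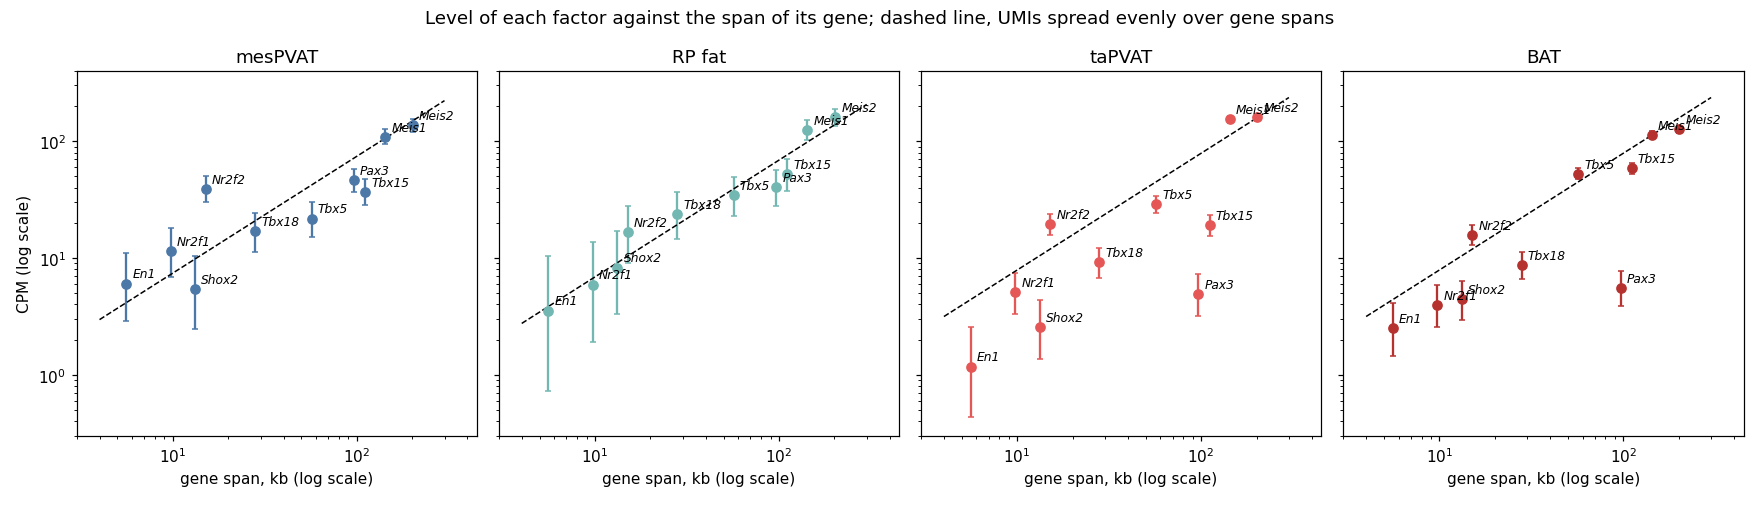
Level of the 10 genes in CPM against the span of each gene in kb, on log axes, for the 4 rat Parse libraries. The dashed line is the level that an even spread of UMIs over gene spans would give, and in RP fat all 10 genes lie within 0.605 to 1.59 times that line.

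Per kb the order of the genes was another. Nr2f2, with a span of 15.1 kb, led in all 4 rat Parse libraries, at 2.59 CPM per kb in mesPVAT (2.00 to 3.31), 1.09 in RP fat, 1.28 in taPVAT and 1.05 in BAT. Meis1 (143 kb) and Meis2 (202 kb) were at 0.766 and 0.679 CPM per kb in mesPVAT and 0.798 and 0.626 in BAT. Tbx5 was at 0.925 CPM per kb in BAT, second to Nr2f2, and Tbx15 at 0.527.

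Shox2, which shapes the proximal limb and the sinus node, was low throughout. It stood at 0 CPM in the 10x library, 5.43 in mesPVAT and 8.28 in RP fat. The brown libraries stood at 2.55 CPM in taPVAT and 4.43 CPM in BAT, and cow WAT had 4.28 CPM, with all neighbours in rank overlapping. In BAT 5 of its 28 UMIs fell in the mural class, at 34.5 CPM (11.2 to 80.5).

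The mesPVAT libraries on the 10x and Parse platforms had the most members called. Of 8 tested genes 3 were higher in the 10x library and 3 lower, against 21.1% and 28.9% of all genes, with median log2 ratios of -0.85 and -0.13. Meis1 was 3.54-fold higher (2.98 to 4.23), Nr2f2 3.34-fold (2.49 to 4.52) and Meis2 2.24-fold (1.89 to 2.65). With 3 counts in place of their 0 UMIs in the 10x library, Pax3 was 19.2-fold lower and Tbx5 8.96-fold lower. The exact upper limit of both there was 2.98 CPM. Their lower limits in mesPVAT by Parse were 36.7 CPM for Pax3 and 15.2 CPM for Tbx5. Tbx15 was lower by a ratio of 22.8 (6.04 to 192) on 2 UMIs. The platforms also differed in nuclei protocol and annotation, and these cannot be told apart.

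In the 10x library the mesothelial markers summed to 923 CPM, with 5 of the 6 genes listed, against 98.4 CPM in mesPVAT by Parse and 66.2 CPM or less elsewhere. The gap to mesPVAT by Parse came from Msln (566 against 13.9 CPM), Wt1 (280 against 47.7) and Bnc1 (52.5 against 10.3). Upk3b (13.7 against 14.5 CPM) and Lrrn4 (10.5 against 7.85) stood at similar levels on both platforms. Placed by marker lists, 194 mesothelial nuclei were at 1188 CPM for Meis1 (934 to 1489), stromal nuclei at 723 (552 to 931), adipocyte nuclei at 312 (261 to 372) and endothelial nuclei at 35.6 (0.901 to 198). By these lists Meis2 was highest in endothelial nuclei, at 783 CPM (491 to 1186) from 22 UMIs, and at 516 CPM (282 to 867) in lymphatic endothelial nuclei. By anchor classes Meis2 was highest in stromal nuclei, with 16 of their 21838 UMIs, against 19 of 28668 in endothelial nuclei. Nr2f2 was at 443 CPM in lymphatic endothelial nuclei (229 to 773), 285 in endothelial nuclei (123 to 561) and 63.3 in mesothelial nuclei (17.3 to 162).

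Further lists of related factors give the surroundings, and each count is to be read against the shares of all genes called. Called lower were 3.22% in BAT against taPVAT and 41.4% in taPVAT against mesPVAT. In BAT against RP fat it was 45.5%, and in the 10x library against Parse 28.9%. Called higher were 0.381%, 8.39%, 13.3% and 21.1% in the order of these pairs. In RP fat against mesPVAT 3.76% were lower and 4.02% higher. Of 9 MEIS partners and other TALE genes, 8 were tested and none called between BAT and taPVAT. Between the platforms 1 of 8 tested TALE genes was called higher in the 10x library and 1, Pknox2, lower. None of 7 was called between the white depots. Pbx4 and Pknox2 were lower in both brown depots than in their white counterparts, 2 of 8 tested genes in each pair. That share lies below the 41.4% of all genes called lower in the perivascular pair and the 45.5% in the other pair. Of 14 other T-box genes, 2 of 8 tested were lower in BAT than in taPVAT (Tbx20 and Tbx21) and none higher, 2 of 8 were lower in taPVAT than in mesPVAT (Tbx3 and Tbx4), and 1 was higher (Mga, 4.69-fold) and 3 lower (Tbx4, Tbx20 and Tbx21) in BAT than in RP fat. Tbx4 was higher and Mga lower in RP fat than in mesPVAT, each 1 of 7 tested. In the 10x library 2 of 8 were higher, led by Tbx1 at 15.7-fold, and 4 lower.

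Of 20 body wall and limb factors, 1 of 10 tested was higher in BAT than in taPVAT (Lmx1b, 2.06-fold), beside 0.381% of all genes. In the same pair 2 were lower (Prrx1 and Prrx2), beside 3.22% of all genes. Lhx8, a LIM homeobox gene of forebrain and tooth that is known as a brown fat marker, was 5.23-fold higher in taPVAT than in mesPVAT. It was not called in BAT against RP fat, at 23.3 and 11.8 CPM, the latter from 10 UMIs. In taPVAT against mesPVAT 8.39% of all genes were higher, and 5 of 9 factors were lower, beside 41.4% of all genes. In BAT 1 of 9 was higher than in RP fat, beside 13.3% of all genes, and 6 were lower, beside 45.5%. None of 9 was called between RP fat and mesPVAT, and all 6 tested were lower in the 10x library, beside 28.9% of all genes. Of 14 visceral and splanchnic factors, 3 of 4 tested were lower in BAT than in taPVAT (Wt1, Gata4 and Gata6) and none higher. Some marker sums also fell from taPVAT to BAT, with stromal markers at 618 and 197 CPM and cardiac muscle markers at 83.7 and 3.01 CPM. Mesothelial markers were at 20.2 and 8.23 CPM, and Wt1 itself gave 63 of their 103 UMIs in taPVAT and 27 of 52 in BAT. Immune, lymphatic endothelial and skeletal muscle sums fell too, while adipocyte, brown adipocyte, endothelial, mural and Schwann sums rose. The part of such shifts in these calls was not tested. In taPVAT 4 of 5 visceral factors were lower than in mesPVAT (41.4% of all genes), in BAT 4 of 4 were lower than in RP fat (45.5% of all genes), and none of 5 was called between the white depots. In the 10x library 4 of 6 were higher, among them Gata6 at 8.72-fold and Wt1 at 5.88-fold, and 2 lower. Of all genes 21.1% were higher and 28.9% lower there. Wt1 and Bnc1, both among the genes called higher, are also mesothelial markers.

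The median log2 ratio of BAT to taPVAT was -0.26 for the TALE list, -0.28 for the T-box list, -0.41 for the PAX list, -0.60 for the body wall list and -1.33 for the visceral list, beside -0.11 for all genes.

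For the genes with enough UMIs, the pattern over 16 sums (4 classes in each of the 4 rat Parse libraries) was compared with 9383 other genes by the Pearson correlation of log2(CPM + 10). Nearest to Tbx5 were Magec2l1 (r = 0.865), Mamdc2 (0.862) and Ano1 (0.848). Nearest to Meis2 were Slit3 (0.862), Rcan2 (0.819) and Fat1 (0.794), nearest to Tbx18 Man1a2 (0.876), Slc7a2 (0.866) and Ptpn13 (0.826), and near to Tbx15 were Phkg2 (0.772) and Nectin1 (0.742). For Nr2f1 they were Cygb (0.885), Col6a3 (0.879) and Numbl (0.834), for Nr2f2 Wdr19 (0.867), Acp2 (0.850) and Rint1 (0.833), for Shox2 Map3k20 (0.820) and Pdgfrb (0.817), for Meis1 Pemt (0.828) and Trub1 (0.789), and for Pax3 Zc3h12b (0.898) and Nkapd1 (0.877). The 16 sums share libraries and differ in depth, and of the 27 nearest genes 15 stayed with log2(CPM + 1) and 6 with rank correlation.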

How the data were processed

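Nuclei were profiled in 6 libraries of rat and cow fat, 1 per group. The deposited files hold whole-number UMI counts per gene and nucleus, which the authors made with Cell Ranger (10x) and split-pipe (Parse, 2 sublibraries joined, rat reads on GRCr8), and no values were normalized before deposit. The study's supplementary methods name Rnor_6.0 for the 10x counts, but the file lists gene identifiers numbered beyond that build's annotation, so 10x and Parse genes were matched by symbol only. All deposited barcodes were used, and no doublet caller was run; nuclei with 2 or more anchors were set apart. Libraries shared 0 barcodes.

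Counts were summed over nuclei and scaled to CPM in Python 3.11.15 (numpy 2.4.6, scipy 1.17.1, pandas 2.3.3), with exact Poisson intervals for levels, exact binomial (Clopper-Pearson) intervals for shares and exact conditional intervals for ratios, all at 95%. With 1 library per group no test was possible. A gene with at least 20 UMIs over a pair was called where the ratio was at least 2 and the intervals of both levels did not overlap; 0 counts were set to 3. Self-tests on simulated Poisson counts checked that the rule finds known changes. These counts held no spread between nuclei or libraries, so they do not tell how reliable the calls are here. Ratios were recomputed with a fold of 1.5, no minimum, at least 500 UMIs per nucleus, the study's limits (100 to 15000 UMIs, at most 4500 genes and 3% mitochondrial, the last not applicable in the cow), without the top 1% of nuclei, without the 5 most abundant genes and per sublibrary.

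The members and lists were chosen with earlier results of these data known. All members were named in every library, plus, of 5 lists of related factors, genes called in a comparison, and for members with at least 50 UMIs the 3 nearest genes by correlation (unnamed identifiers are left out of the text, and some genes are not reported here). Gene spans and promoters came from RefSeq tables of GRCr8.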

Additional observations from a re-analysis of the deposited data

Results flagged for a closer look

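In 5 genes the 2 libraries of 1 contrast moved one way and the 2 of the parallel contrast the other, as log2 ratios of CPM. With 1 library per depot these differences were not tested. None of the log2 ratios below met the rule for a call. For each gene the Poisson intervals overlapped in at least 1 of the 2 contrasts, so that the direction there lies within counting error. Tbx15 was lower in brown than in white fat around vessels (-0.95) and higher away from them (0.17), a difference of -1.12. Its adipocyte-class ratio of BAT to taPVAT (2.74) had the same direction as the ratio of the whole libraries. Meis1 was higher in brown than in white perivascular fat (0.50) and lower away from vessels (-0.14), a difference of 0.64, and the same 4 libraries read by position give -0.64. Meis2 did likewise, with 0.23 and -0.35, a difference of 0.58, and by position -0.58. Tbx18 differed between other and perivascular fat by -0.08 in brown and 0.49 in white libraries, a difference of -0.57. Pax3 differed by 0.18 in brown and -0.21 in white libraries, a difference of 0.39.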

How the results depend on the processing

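No paired analysis was possible because each group had 1 library. Among the calls, 1 member between BAT and taPVAT became 2 with a fold of 1.5 and 2 in sublibrary 2, with Tbx5 added each time. Between RP fat and mesPVAT the 1 call became 0 among nuclei with at least 500 UMIs, 0 without the 1% of nuclei with the most UMIs, 0 in sublibrary 1 and 0 in the adipocyte class. Between taPVAT and mesPVAT 2 calls became 1 without the 5 most abundant genes, 1 without the top 1% of nuclei, 1 in sublibrary 1 and 1 in the adipocyte class, and 3 with a fold of 1.5, with no minimum of UMIs and in sublibrary 2. Between BAT and RP fat 2 became 1 in sublibrary 2 and 1 in the adipocyte class. Among nuclei with at least 500 UMIs the number stayed at 2, but with 1 member higher and 1 lower in BAT. Between the mesPVAT platforms 6 became 3 in the adipocyte class. The adipocyte-class fits were chosen after seeing the data. No called direction reversed in the alternatives run.

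Of 60 shares of positive nuclei, 14 stayed inside their interval at 200 UMIs and 13 at 500. Of 60 member levels, 54 stayed inside among nuclei with at least 500 UMIs, 55 under the study's limits, 56 without the top 1% and 46 without the 5 most abundant genes. The class with the highest level was the same in 19 of 31 cases with marker lists, and the leading anchor of positive nuclei in 17 of 31 after thinning. Mural Tbx5 was 708 CPM in BAT and 505 in taPVAT when mixed nuclei joined the class of their leading anchor, and 540 and 359 with marker lists. Low depth in mesPVAT and RP fat limits every class level there.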
